A study of Mus musculus domesticus with 6 samples.

Results

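Genes that equip a developing red cell to carry gas, move water, take up lipid and reshape its surface and nucleus were followed in BFU-E, the burst-forming progenitors that open the red cell lineage. The set was chosen by name as erythroid genes other than transcription factors, heme enzymes and the main membrane skeleton, and holds 10 genes: Car1, Car2, Aqp1, Cd36, Hemgn, Xpo7, Trim10, Ahsp, Ermap and Add2. Of these, 9 were matched by symbol among the 55359 genes in the tables. The symbol of Ahsp, which encodes the chaperone of alpha globin, matched no identifier in the reference used, and the gene is not analysed here. Of the 9, 8 had enough counts to be tested among 13117 genes, and Cd36 did not.

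The cells were sorted from fetal livers of mouse embryos at E14.5. All 6 samples were homozygous for a floxed allele of Exosc3, a subunit of the RNA exosome. The exosome degrades and trims RNA from its 3′ end. The 3 Cre-negative libraries (Exosc3 fl/fl Cre-) and the 3 Cre-positive libraries (Exosc3 fl/fl Cre+) came from 3 litters with 2 samples each per the design text. The strain label of every sample names Exosc3-floxed and Vav1-Cre, a transgene whose promoter is active in blood cells generally and not in erythroid cells alone. Sorting took GFP-positive, lineage-negative, Kit-positive cells with the lowest CD24 and CD71 staining.

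Red cells carry most carbon dioxide as bicarbonate, which carbonic anhydrases form from carbon dioxide and water inside the cell. The genes for this machinery, for the water channel and for the surface proteins are switched on in steps between the BFU-E and the enucleating erythroblast, under GATA1, KLF1 and their partners. Several of them start before globin does, and Car2 is known as an early erythroid gene.

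The libraries held between 89629958 and 124931218 counts, and all values of a gene are given as CPM (counts relative to the scaled library size) unless TPM (also scaled for transcript length) is named. Exosc3 itself was at 51.9, 44.3 and 48 CPM in the Cre-negative and 26.8, 22.1 and 30.2 CPM across the Cre-positive replicates 1 to 3, with no overlap. Its log2 fold change of -0.87 had an SE of 0.22 and missed the threshold over all genes (adjusted p = 0.259, edgeR). These counts cover the whole gene and do not separate deleted from intact exons. The reporter eGFP had 91, 0 and 197 counts in the Cre-negative libraries and 4884, 3311 and 4206 in the Cre-positive ones, although the labels give GFP-positive sorting for all 6. Even this difference, a log2 fold change of 5.48 with an SE of 1.16, missed the threshold over all genes (adjusted p = 0.187, edgeR). A gene that did not pass may therefore still differ. Between libraries, log2 CPM correlated at 0.778 to 0.832 (Pearson). Kit was present at 395 ± 26.7 CPM in the Cre-negative and 346 ± 10.5 CPM in the Cre-positive libraries (SD, n = 3 each), and Gata1 at 99.5 ± 25.0 and 104 ± 2.84 CPM. The globin genes together reached no more than 29.8 CPM in any library, and 3 of 8 were at 0 in all libraries. In bulk RNA from sorted cells, fewer cells of a type and less RNA per cell cannot be told apart.

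Car2 and Car1 are neighbours in a cluster of cytosolic carbonic anhydrase genes on chromosome 3, in the order Car13, Car1, Car3, Car2 in the GENCODE M21 models. They are shown together because related coding sequences could exchange reads. The 90 bases below are the coding stretch of each gene around the codons of some of the histidines that hold the catalytic zinc ion. They come from GENCODE M21 transcripts (GRCm38), 5′ to 3′ on the coding strand. Capitals mark bases that differ from Car2.
Car2: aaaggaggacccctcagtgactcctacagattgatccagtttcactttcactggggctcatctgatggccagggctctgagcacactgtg
Car1: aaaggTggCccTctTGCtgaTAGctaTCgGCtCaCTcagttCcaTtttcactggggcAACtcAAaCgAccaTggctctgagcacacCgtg
Car3: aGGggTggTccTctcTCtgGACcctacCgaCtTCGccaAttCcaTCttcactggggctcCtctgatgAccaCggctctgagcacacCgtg
Car13: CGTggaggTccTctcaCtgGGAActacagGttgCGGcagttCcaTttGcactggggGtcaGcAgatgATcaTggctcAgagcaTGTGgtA
Even in this conserved stretch Car1 differed from Car2 at 27 of 90 bases, Car3 at 23 and Car13 at 29. Over the whole coding sequence Car1 was 62.8% identical to Car2, and the transcripts of the pair shared no 50-base word. Car2 shared no 50-base word with any other gene in the annotation. Car1 shared 13.4% of its 50-base words with other genes, more of them with Gm5843 than with any other gene. Gm5843 had 0 counts in all 6 libraries.

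Car2 was the 1 gene of the set that passed the threshold over all genes, and it was higher in Cre-positive BFU-E. Carbonic anhydrase 2, the fast cytosolic isoform (ENSMUSG00000027562), stood at 239, 236 and 205 CPM in the Cre-negative replicates 1, 2 and 3. In the Cre-positive replicates it stood at 538, 502 and 408 CPM. The lowest Cre-positive library lay well above the highest Cre-negative one, a separation that 7.53% of all tested genes showed in this direction and 7.66% in the other, and replicate 3 was the lowest of its group in both groups. The mean went from 226 ± 18.8 to 483 ± 67.3 CPM (SD, n = 3 each), a 2.13-fold rise. Its log2 fold change was 1.09 with an SE of 0.12 and a 95% interval of 0.82 to 1.36 (adjusted p = 0.00787, edgeR's quasi-likelihood test with Benjamini-Hochberg adjustment). The same test called 0.122% of all tested genes, and 1 of the 8 tested genes of this set.

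The size of the Car2 difference held within 1.01 to 1.20 on the log2 scale over 14 other settings, while its call did not hold in all of them. Without Cre-positive replicate 1 the adjusted p was 0.0595, and without Cre-positive replicate 2 it was 0.085 (edgeR). With offsets for effective transcript length the log2 fold change was 1.10 and the adjusted p was 0.0515. On the TPM scale the libraries gave 185, 184 and 175 against 415, 405 and 321, and Car2 was above 96.5% of all tested genes in mean TPM.

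**Figure D1:**
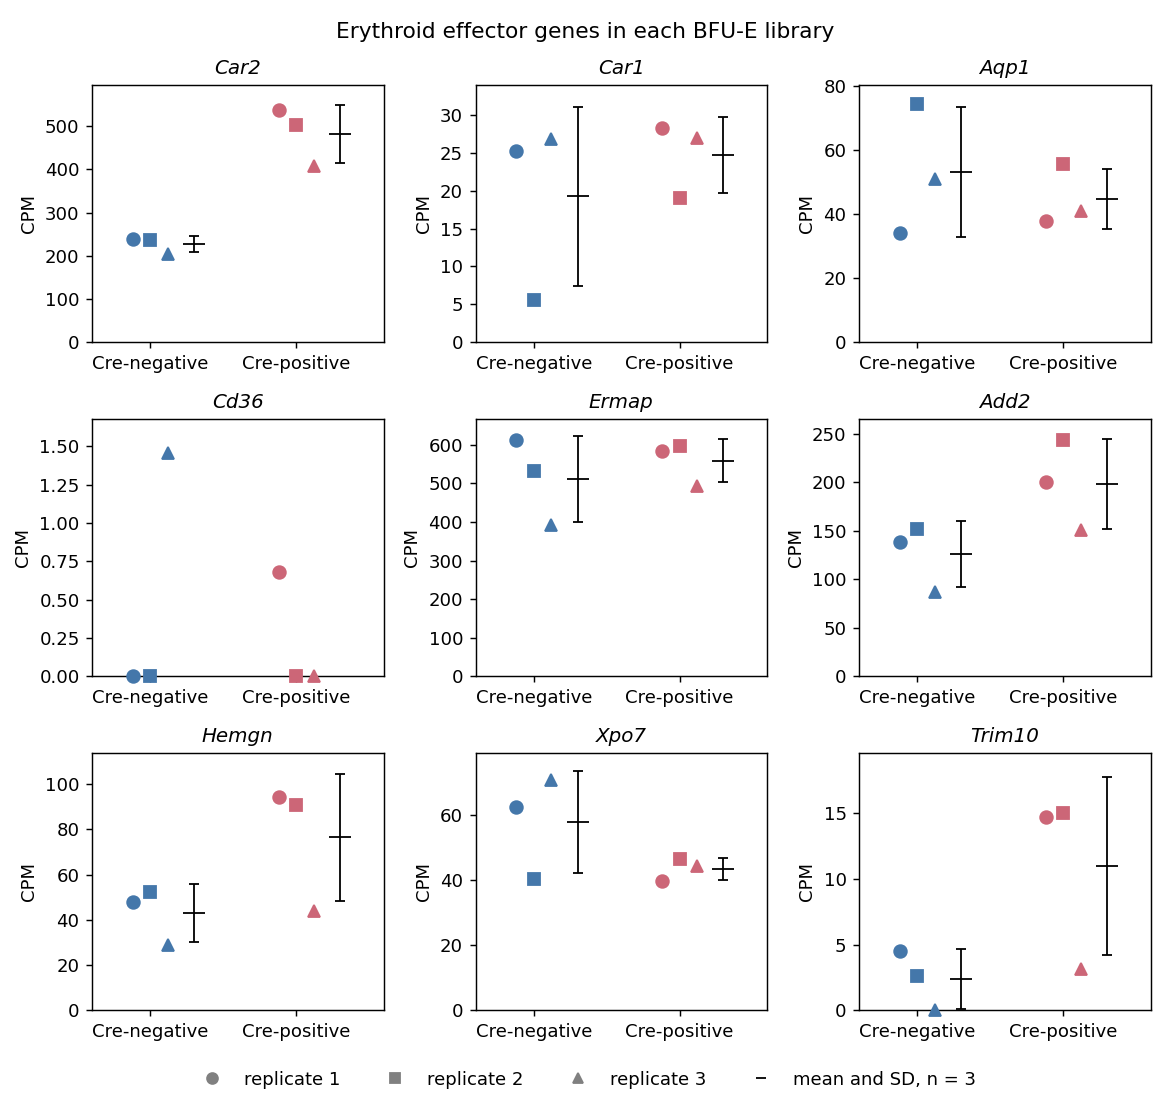
Level of each of the 9 measured genes in CPM (y axes, linear from 0, scaled per gene) in the 3 Cre-negative (blue) and 3 Cre-positive (red) libraries. Marker shapes give the replicate number, and black bars give the mean and SD (n = 3), left out for Cd36. Only Car2 has Cre-positive libraries (408 to 538 CPM) that all lie above the Cre-negative ones (205 to 239 CPM).

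Car1, the slower cytosolic isoform (ENSMUSG00000027556), did not pass. Its level was 25.3, 5.61 and 26.8 CPM in the Cre-negative and 28.3, 19.0 and 26.9 CPM across the Cre-positive replicates. Cre-negative replicate 2 stood far below the other 5 libraries, which lay close together, and the groups overlapped. Its log2 fold change was 0.36 with a 95% interval of -0.80 to 1.52 (adjusted p = 0.978, edgeR), and it turned to -0.08 without Cre-negative replicate 2. The interval includes the change measured for Car2.

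The share of Car1 relative to Car2 was compared in each library by TPM. Car1 was at 17.8%, 4.02% and 20.8% of the Car2 level in Cre-negative and at 8.60%, 6.06% and 11% in Cre-positive replicates 1 to 3. The Cre-negative libraries spanned the whole Cre-positive range. The difference of -0.46 in the log2 ratio did not pass an exact two-sided permutation test (p = 0.6, and 0.6 after adjustment over the 2 ratios examined), which cannot give less than 0.1 with 3 against 3. Without Cre-negative replicate 2 it was -1.21. Whether Car1 changed differently from Car2 was thus not resolved by these libraries.

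The rest of the carbonic anhydrase family was sparse. Of 14 other family members 7 had 0 counts in all libraries and 3 were tested, with none passing. Car13, the most abundant of them, stood at 8.14 ± 1.80 and 7.23 ± 1.07 CPM (SD, n = 3 each; log2 fold change -0.17, interval -1.37 to 1.03). Car9, the membrane isoform induced by low oxygen, was at 1.80, 6.82 and 4.64 CPM in the Cre-negative and 0.684, 0.961 and 0 CPM in the Cre-positive libraries, lower in each Cre-positive library but not past the threshold (adjusted p = 0.829, edgeR). Car3, which lies between Car1 and Car2, had counts in 2 Cre-negative libraries only.

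**Figure D2:**
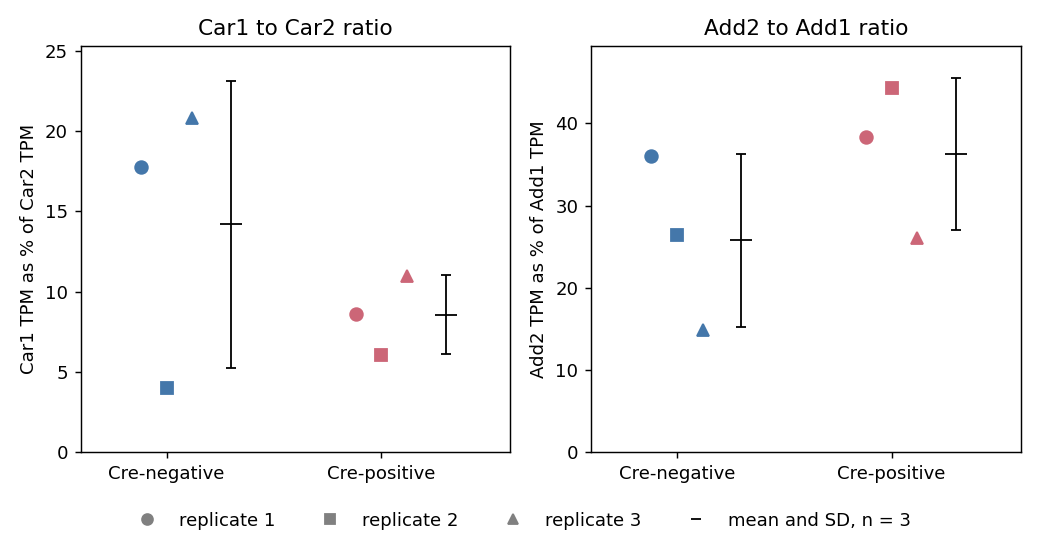
TPM of Car1 as a percentage of Car2 (left) and TPM of Add2 as a percentage of Add1 (right) in each library (y axes, linear from 0), with marker shapes for the replicate number and black bars for the mean and SD (n = 3). The groups overlap for both ratios, and Cre-negative replicate 2 has the lowest Car1 share at 4.02%.

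Aqp1, the water channel of the red cell membrane and carrier of the Colton blood group (ENSMUSG00000004655, chromosome 6), did not pass. It was at 34.2, 74.4 and 50.9 CPM in the Cre-negative and 37.7, 55.5 and 41.1 CPM across the Cre-positive replicates. The groups overlapped entirely, and replicate 2 was the highest of its group in both. A log2 fold change of -0.25 (95% interval -0.90 to 0.41, adjusted p = 0.962, edgeR) became 0.07 without Cre-negative replicate 2, so it carries no direction. Of 10 other aquaporins 7 had 0 counts in all libraries. Aqp3, a channel for water and glycerol, was at 8.83, 6.83 and 1.68 CPM in the Cre-negative and 53.9, 19.7 and 17.5 CPM in the Cre-positive libraries, all 3 above the Cre-negative range, and missed the threshold over all genes (log2 fold change 2.39, SE 0.66, adjusted p = 0.279, edgeR).

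Cd36, a receptor for fatty acids and thrombospondin that marks maturing erythroid progenitors and is also carried by monocytes, platelets and endothelium (ENSMUSG00000002944, chromosome 5), was barely seen. It had 181 counts in Cre-negative replicate 3, 85 counts in Cre-positive replicate 1 and 0 in the other 4 libraries. A count of 0 allows up to 3 counts, or 0.0260 to 0.0339 CPM in these 4 libraries, which covers counting error of reads only. For comparison, 2095 genes were seen in 1 library only, with a median of 108 reads there. No difference was detectable from these counts. The related class B scavenger receptors Scarb1 and Scarb2 were both present, at 95.5 ± 4.66 and 62.0 ± 13.2 CPM in the Cre-negative and 105 ± 3.00 and 85.8 ± 1.82 CPM in the Cre-positive libraries (SD, n = 3 each), and neither passed (adjusted p = 0.939 and 0.528, edgeR). Both were higher in each Cre-positive library than in any Cre-negative one, as were 7.53% of all tested genes.

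Ermap, a transmembrane protein of the immunoglobulin superfamily that carries the Scianna blood group (ENSMUSG00000028644, chromosome 4), did not pass. It stood at 612, 532 and 392 CPM in the Cre-negative and 585, 597 and 494 CPM across the Cre-positive replicates. The Cre-positive values all fell inside the Cre-negative range. The log2 fold change was 0.13 with a 95% interval of -0.21 to 0.47 (adjusted p = 0.964, edgeR), and -0.04 without Cre-negative replicate 3. The interval leaves out a change as large as that of Car2.

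Add2 encodes beta adducin, which caps actin filaments under the membrane (ENSMUSG00000030000, chromosome 6). It was at 139, 152 and 87.4 CPM in the Cre-negative and 200, 244 and 151 CPM across the Cre-positive replicates. The groups met at the edge, with Cre-positive replicate 3 just under Cre-negative replicate 2, and replicate 3 was the lowest of its group in both. The log2 fold change of 0.65 (SE 0.23, 95% interval 0.15 to 1.16) missed the threshold over all genes (adjusted p = 0.436, edgeR, and 0.0579 to 0.695 over the alternatives). Add2 has 10 transcript models, and its effective length averaged 2877 bases in Cre-negative and 2707 in Cre-positive libraries. With effective length offsets the difference was 0.74. An opposite-strand gene, Gm44089, overlaps its exons and had 0 counts in all libraries.

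Adducin works as a pair of an alpha subunit with a beta or gamma subunit. Add1, the alpha subunit, did not pass (log2 fold change -0.19, SE 0.08, adjusted p = 0.604, edgeR). Its mean CPM was lower in Cre-positive libraries (295 ± 3.56 against 336 ± 14.7, SD, n = 3 each) and its mean TPM was higher (225 ± 14.2 against 202 ± 34.3), as its effective length averaged 1453 against 1914 bases. Add3, the gamma subunit, was at 169 ± 12.3 and 137 ± 36.5 CPM and did not pass (log2 fold change -0.30). By TPM, Add2 was at 36.0%, 26.4% and 14.9% of Add1 in Cre-negative and 38.4%, 44.3% and 26.1% in Cre-positive replicates, with overlap. The difference of 0.55 in the log2 ratio had an exact two-sided permutation p of 0.3 (0.6 after adjustment over the 2 ratios). By CPM the difference was 0.85 with separated groups (exact permutation p = 0.1, the smallest possible), and without Cre-negative replicate 3 the TPM value was 0.20.

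Hemgn, a nuclear protein of blood-forming cells (ENSMUSG00000028332, chromosome 4), was at 48.1, 52.3 and 28.7 CPM in the Cre-negative and 94.4, 90.7 and 44.1 CPM across the Cre-positive replicates. Cre-positive replicates 1 and 2 lay above all Cre-negative libraries, and replicate 3 lay among them. The log2 fold change of 0.83 (SE 0.32, 95% interval 0.11 to 1.54) missed the threshold over all genes (adjusted p = 0.519, edgeR, and 0.0631 to 0.722 over the alternatives, the lowest by DESeq2). It moved between 0.60 and 1.10 over the alternatives.

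Xpo7, a nuclear export receptor known for its high level in late erythroblasts as the nucleus condenses (ENSMUSG00000022100, chromosome 14), had a negative log2 fold change and did not pass. It was at 62.5, 40.3 and 70.6 CPM in the Cre-negative and 39.8, 46.4 and 44.4 CPM across the Cre-positive replicates. The Cre-positive libraries lay together at the low end of a wide Cre-negative range. The log2 fold change was -0.41 with a 95% interval of -0.93 to 0.11 (adjusted p = 0.764, edgeR), and -0.24 without Cre-negative replicate 3. Of 7 other exportins none passed and 3 had a positive log2 fold change. Xpo1, the main export receptor and the most abundant of them, was at 423 ± 51.5 and 430 ± 19.8 CPM (SD, n = 3 each), and Xpot, which exports tRNA, had a log2 fold change of -0.30 (adjusted p = 0.56, edgeR).

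Trim10, a RING finger protein required for late erythroid maturation in culture (ENSMUSG00000073400, chromosome 17), was rare. It had 433, 278 and 0 counts in Cre-negative and 1826, 1330 and 364 counts in Cre-positive replicates, or 4.50, 2.65 and 0 against 14.7, 15.0 and 3.16 CPM. Cre-positive replicates 1 and 2 were the highest, and replicate 3, the lowest of its group in both, lay inside the Cre-negative range. A log2 fold change of 2.20 had a 95% interval of -1.20 to 5.61 (adjusted p = 0.86, edgeR), and ranged from 1.61 without Cre-negative replicate 3 to 4.88 by limma-voom. The gene could enter the test only through counts in Cre-positive libraries, since only 2 Cre-negative libraries had any. Of 5 other TRIM genes, Trim15, the neighbour of Trim10, had 0 counts in all libraries, and Trim27, the most abundant, was at 291 ± 18.6 and 330 ± 13.8 CPM and did not pass (adjusted p = 0.687, edgeR). Trim27 was higher in each Cre-positive library than in any Cre-negative one, as were 7.53% of all tested genes.

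**Figure D3:**
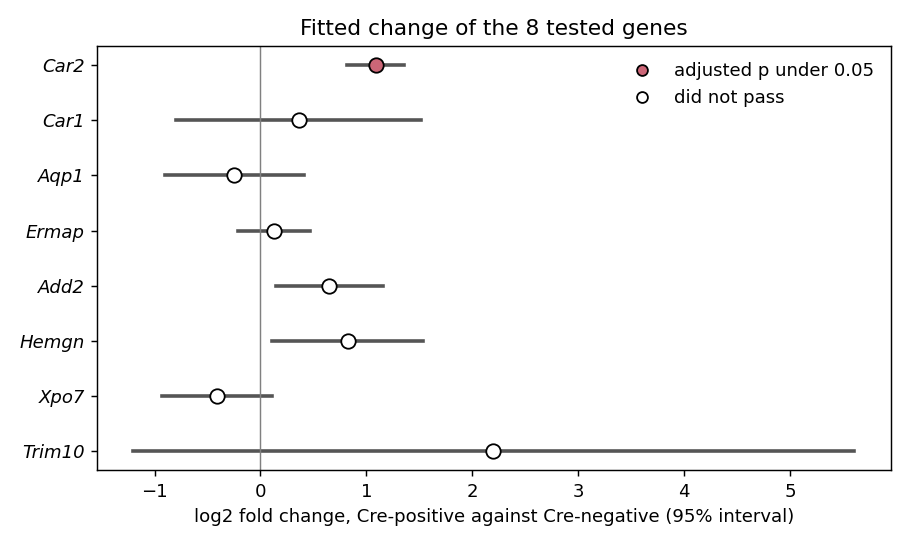
Fitted log2 fold change (x axis) of the 8 tested genes, Cre-positive against Cre-negative, with bars for the 95% interval (edgeR, n = 3 each) and a filled point for the gene past an adjusted p of 0.05. Car2 has the narrowest interval, 0.82 to 1.36, and that of Trim10 runs from -1.20 to 5.61.

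Set side by side, 6 of the 8 tested genes had a positive log2 fold change, against 49.2% of all tested genes, and the median of the 8 was 0.51, against -0.01 over all. Trim10 could enter the test only through Cre-positive counts, and without it, a choice made after seeing the data, 5 of 7 were positive with a median of 0.36. At an unadjusted p under 0.05, 3 were higher (Car2, Hemgn and Add2) against 4.05% of all tested genes, and none was lower, against 4.19%, or 8.23% in either direction. These counts are a description of genes chosen with earlier results known. Replicate 3 was the lowest library of its group, in both groups at once, for 5 of the 8 (Car2, Hemgn, Trim10, Ermap and Add2), against 11.8% of all tested genes. The labels number the samples within each genotype and tie no number to a litter. Spread within a group differed widely: the coefficient of variation of CPM in Cre-negative libraries was 8.29% for Car2, 21.8% for Ermap and 61.5% for Car1, where the median over genes with at least 1000 counts was 17.3%.

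The order of levels was read from TPM, which can be compared between genes. In Cre-negative libraries Car2 (181 ± 5.46 TPM, SD, n = 3) and Ermap (167 ± 41.3) led and overlapped each other. Add2 (49.9 ± 14.2), Aqp1 (26.2 ± 9.79), Car1 (25.5 ± 15.8), Hemgn (23.9 ± 6.58) and Xpo7 (15.5 ± 4.04) formed a run in which each overlapped the next. Trim10 (1.39 ± 1.32) and Cd36 lay at the bottom. In Cre-positive libraries Car2 (380 ± 51.6) stood alone above Ermap (169 ± 12.2), which stood alone above Add2 (81.8 ± 23.5), and Hemgn (41.5 ± 15.0), Car1 (31.9 ± 6.34) and Aqp1 (21.6 ± 4.75) followed, with each overlapping the next. Xpo7 (11.6 ± 2.43), Trim10 (6.32 ± 3.88) and Cd36 came last without overlap. Car2, Ermap and Add2 thus held the first places in both groups, with Car2 and Ermap overlapping in Cre-negative libraries only, while Hemgn and Aqp1 changed places around Car1, which overlapped both of them in each group.

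Other erythroid genes were compared by lists. Over all tested genes, 49.2% had a positive log2 fold change. At an unadjusted p under 0.05 (edgeR), 4.05% were higher and 4.19% lower. Of 16 tested genes of the membrane skeleton and blood groups, 14 had a positive log2 fold change (median 0.74). At an unadjusted p under 0.05, 7 were higher and 1, Add1, was lower. Tmod1, among the 14 with a log2 fold change of 1.57, had 269, 256 and 0 counts in Cre-negative libraries. It had 653, 309 and 783 counts in Cre-positive libraries and, like Trim10, could enter the test only through these. The 1 gene that passed over all genes was Mpp1, a membrane scaffold protein (24.9 ± 4.04 to 110 ± 19.4 CPM, SD, n = 3 each, adjusted p = 0.00301, edgeR). All 7 tested heme enzymes had a positive log2 fold change (median 0.45), 4 were higher at an unadjusted p under 0.05 and none passed. Cpox, coproporphyrinogen oxidase, was at 563 ± 105 and 809 ± 137 CPM (adjusted p = 0.322, edgeR), and Ppox, the next enzyme, had an adjusted p of 0.466. Of 12 erythroid transcription factors 10 had a positive log2 fold change (median 0.13), 2 were higher at an unadjusted p under 0.05 and none passed. Zfpm1, the GATA1 partner FOG1, was at 476 ± 67.4 and 598 ± 71.1 CPM (adjusted p = 0.505, edgeR), and Nfe2l2 at 98.2 ± 13.4 and 130 ± 1.76 CPM (adjusted p = 0.402). Of 8 globin genes 3 were tested and none passed. By CPM, every Cre-positive library lay above every Cre-negative one for 6 skeleton genes, 4 heme enzymes and 4 transcription factors. Cpox, Ppox, Zfpm1, Nfe2l2 and Mpp1 were among these. Add1 was separated downward. Over all tested genes, 7.53% were separated upward and 7.66% downward.

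**Figure D4:**
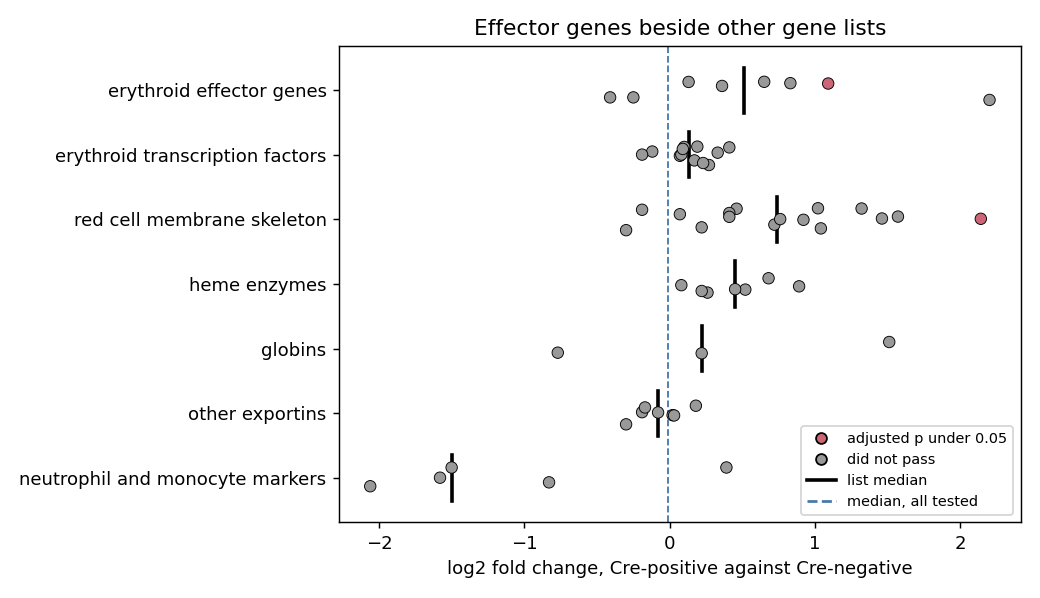
Log2 fold change (x axis) of each tested gene in the effector set and in 6 other lists (y axis: erythroid transcription factors, membrane skeleton, heme enzymes, globins, other exportins, neutrophil and monocyte markers), with black bars for the list median, a dashed line for the median of all tested genes (-0.01) and red points for genes past an adjusted p of 0.05. Car2 and Mpp1 are the only red points, and the neutrophil and monocyte list lies lowest of those drawn, with a median of -1.50. The macrophage list, of which 2 genes were tested (median -2.17), is not drawn. Of these, Csf1r had 322, 261 and 0 counts in Cre-positive libraries and could enter the test only with Cre-negative counts. Cd68 had 0, 0 and 463 counts in Cre-negative and 254, 0 and 54 in Cre-positive libraries.

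Summed markers of other cells and stages are given as ranges, and those of endothelial, hepatocyte and megakaryocyte markers overlapped between the groups. The part of any of these sums in the rise of Car2 was not tested. The summed level of 10 neutrophil and monocyte markers ranged from 538 to 1434 CPM in the Cre-negative and from 224 to 507 CPM in the Cre-positive libraries, mostly Mpo, while S100a8, S100a9 and Ly6c2 were at 0 throughout. None of the 5 tested passed, and 1 had a positive log2 fold change, against 49.2% of all tested genes. The 10 macrophage markers summed to 16.7 to 35.2 against 0.468 to 4.64 CPM, with Csf1r making up most of the Cre-negative sums (15.8 to 31.5 CPM) and at 2.59, 2.95 and 0 CPM in Cre-positive replicates 1 to 3, and with Adgre1, C1qa, C1qc, Vcam1, Marco and Timd4 at 0. The 10 endothelial markers summed to 30.1 to 60.7 against 16.7 to 35.8 CPM, with Ptprb, Stab2 and Lyve1 at 0, and the 8 hepatocyte markers to 2.35 to 8.35 against 0 to 4.95 CPM, with Afp, Apoa2, Ttr, Serpina1a and Apob at 0. The 10 megakaryocyte markers summed to 51.6 to 92.8 against 72.0 to 107 CPM, with Gp6 and Ppbp at 0.

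None of the stage and sort markers passed. By CPM, Tspo2, Epb42 and Cd24a were higher and Kit was lower in each Cre-positive library than in any Cre-negative one. Of all tested genes, 7.53% were separated in this way upward and 7.66% downward. By TPM, Tspo2 and Cd24a stayed separated, while Epb42 and Kit overlapped between the groups. Epb42 was at 5.26 ± 4.55 TPM in Cre-negative and 6.62 ± 2.00 TPM in Cre-positive libraries (SD, n = 3 each). Its effective length averaged 1479 bases in Cre-negative and 2432 in Cre-positive libraries. The 10 late erythroblast markers summed to 31.1 to 45.6 CPM in the Cre-negative and 46 to 132 CPM in the Cre-positive libraries. Of 7 tested, 6 had a positive log2 fold change, against 49.2% of all tested genes, and none passed. The median of these markers was 0.99, beside 1.09 for Car2. Their part in the rise of Car2 was not tested. Tspo2, a late erythroid membrane protein, was at 10.2 ± 5.39 and 26.2 ± 7.32 CPM (SD, n = 3 each, adjusted p = 0.39, edgeR), and Epb42 at 5.51 ± 2.74 and 15.1 ± 8.19 CPM (adjusted p = 0.564). Of the genes behind the sort gate, Cd24a was at 110 ± 32.9 and 159 ± 23.9 CPM (log2 fold change 0.53, adjusted p = 0.558, edgeR) and Kit had a log2 fold change of -0.19 (adjusted p = 0.614). Tfrc, which encodes CD71, was at 241 ± 66.5 and 248 ± 89.0 CPM (log2 fold change 0.04).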

How the data were processed

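Total RNA of 6 sorted BFU-E samples was sequenced from Takara SMARTer Pico libraries, per the labels' protocols. The submitters' processing notes list STAR 2.5.3a, RSEM 1.3.0 and the build GRCm39. For the annotation release and the strand of counting, the sources used here give nothing, so sense and antisense reads may not be separated. The authors deposited expected counts, TPM, FPKM and mean and effective transcript lengths (other values in bases) per gene, per the file headers. Expected counts (2.64% not whole) were rounded. Symbols matched 52081 of 55359 identifiers. Genes kept by filterByExpr (13117) were tested with edgeR 4.0.16 (TMM, glmQLFit, glmQLFTest) under R 4.3.3, with p-values adjusted by Benjamini-Hochberg and a threshold of 0.05. SEs are the log2 fold change over the square root of F. Folds are ratios of mean CPM. The test was tried on simulated counts. TPM served for the 2 ratios and the order of levels, and FPKM for an alternative of the ratios. Nothing in the labels excludes shared handling of samples, so p-values measure the spread between these 6 samples. The genes, the lists and the tests were chosen with earlier results of these data known. All 9 matched genes were named, with at most the 2 smallest p per list and the most abundant relative; 1 gene under this rule is not reported here. A gene was also described where it lies beside a named one, shares sequence with it, or limits the reading of a list. Shared 50-base words and overlaps come from GENCODE M21 (GRCm38), whose coordinates are not printed because the build differs. Alternatives used DESeq2 1.42.0, limma 3.58.1, other scalings and filters, length offsets, a replicate block and each library left out.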

Additional observations from a re-analysis of the deposited data

How the results depend on the processing

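Car2 was called in the main edgeR fit and under 11 of 14 alternatives. The number of effector genes called fell from 1 to 0 with effective length offsets, and ranged from 0 to 1 with single libraries left out, with 0 without Cre-positive replicate 1 or 2. The cause was not tested. Directions turned with 1 library left out for Car1 (-0.08 without Cre-negative replicate 2, range -0.08 to 0.67), Aqp1 (0.07 without Cre-negative replicate 2, range -0.48 to 0.07) and Ermap (-0.04 without Cre-negative replicate 3, range -0.04 to 0.27). Hemgn, Add2, Xpo7 and Trim10 kept their direction under every alternative run and were called in none. Among all genes, 16 were called in the main fit, 453 by DESeq2, 39 with no filter, 84 with a mean of at least 1000 counts, 6 with effective length offsets, and 7 to 16 with 1 library left out (9 without Cre-positive replicate 1 and 7 without replicate 2). Both ratios kept their direction in all 9 alternatives. Car1 to Car2 ranged from -1.21 to -0.02 and Add2 to Add1 from 0.20 to 0.83 with 1 library left out. The replicate numbers were not taken to pair the samples: deviations of same-numbered libraries from their group means correlated at 0.026, 0.0534 and 0.0725 across genes, although every library correlated best with its own number. With the replicate number as a block, 56 genes were called, 1 of them among the effector genes (Car2, adjusted p = 0.00166, edgeR), and Add2 had an adjusted p of 0.0579. Trim10 and Cd36 were limited by low and uneven counts, with 0 in some libraries. No scaling moved the median of all genes by over 0.1.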
